A study of Rattus norvegicus with 24 samples.

Results

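The 9 genes described here are markers of myelin and of the oligodendrocyte lineage: the myelin genes Mog, Mbp, Mag, Mobp and Cnp, the lineage transcription factors Olig1 and Olig2, and the precursor genes Cspg4 and Pdgfra. They were chosen by gene symbol, with no measured value in the rule, and each was found as a single row among the 17711 rows of the expression table. The table covers 24 RNA-seq libraries of male Sprague-Dawley rats (Rattus norvegicus, age not given in the sources used here) that pressed a lever for infusions of methamphetamine (MA) or of saline (SA). The 4 groups were the striatum of MA rats, the striatum of SA rats, the whisker follicles of MA rats and the whisker follicles of SA rats, with 6 libraries each. Rats of both kinds were first trained on the lever with food and underwent the same surgery, and the groups were defined by the infused solution. According to the study, MA rats also pressed the active lever more often and took more infusions than SA rats. Neither a transgene nor a gene deletion was part of the model, and the striatum was sequenced as whole tissue after poly(A) capture, so each value is an average over all cells of the sample. A smaller number of cells of a type and less RNA per cell cannot be told apart in such samples. Libraries are called by the index 0 to 5 of their column, and the sources used here tie that index to no rat.

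Oligodendrocytes wrap axons of the central nervous system in myelin, a stack of membrane whose protein content is dominated by a few very abundant gene products. They arise through life from precursor cells, which divide and carry the receptor for platelet-derived growth factor and the NG2 proteoglycan on their surface. A precursor that differentiates loses these surface proteins, passes through a short newly formed stage and then switches on the myelin genes. In the striatum, oligodendrocytes lie in the fibre bundles that cross the tissue and among the neurons, and precursors are spread throughout.

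Values are FPKM, fragment numbers divided by the length of the transcript and by the mapped fragments of the library, and so can be compared between genes. In the striatum, Mbp was the gene with the highest FPKM in 12 of 12 libraries and made up 0.960% to 3.12% of the library's FPKM sum. The 9 genes together made up 1.16% to 3.61%. From the highest mean to the lowest, the order was Mbp, Cnp, Mobp, Mag, Olig1, Mog, Olig2, Pdgfra and Cspg4 in MA rats, and in SA rats Mag stood above Mobp and Mog above Olig1. The ranges of Mag and Mobp overlapped in each group, and so did those of Mog and Olig1. The tissue labels fitted the 10 markers of striatal projection neurons, which summed to 2332 to 5458 FPKM in striatum MA libraries and 2330.4 to 5777 FPKM in striatum SA libraries, and to at most 49.0 FPKM in a follicle library.

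Among the myelin genes, Mbp, whose protein holds the cytoplasmic faces of the myelin membrane together, had 5893, 3464, 5800.1, 5882, 11551 and 9883 FPKM in MA libraries 0 to 5, against 4684, 3832, 8329.8, 10879.9, 5532 and 4516 FPKM in SA libraries 0 to 5. MA libraries 4 and 5 and SA libraries 2 and 3 were the high ones, and the groups overlapped almost fully. The mean was 7079 ± 3013 FPKM in MA rats and 6296 ± 2741 FPKM in SA rats (SD, n = 6 each), with a log2 fold change of 0.16 (SE 0.32) on the log2(FPKM + 1) scale used throughout and an adjusted p of 0.912 in limma (Benjamini-Hochberg over all genes tested). An exact permutation test, two-sided and not adjusted, that ran through the 924 ways to split the 12 libraries gave p = 0.639.

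Mog, the myelin oligodendrocyte glycoprotein of the outermost myelin layer, had 113, 81.5, 107, 86.5, 128 and 105 FPKM in MA libraries, against 113, 98.8, 188, 188, 126 and 88.3 FPKM in SA libraries. SA libraries 2 and 3 again stood above all others, and 2 of 6 MA libraries lay below every SA library. The mean was 103 ± 17.1 FPKM in MA rats and 134 ± 44.0 FPKM in SA rats, a log2 fold change of -0.32 (SE 0.19, limma adjusted p = 0.661, exact permutation p = 0.175).

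Mag, an adhesion glycoprotein on the myelin membrane that faces the axon, had 198, 127, 161, 144, 188 and 169 FPKM in MA libraries, against 181, 145, 256, 302, 192 and 137 FPKM in SA libraries. Cnp, a cyclic nucleotide phosphodiesterase of the non-compact myelin, had 428, 299, 415, 308, 506 and 444 FPKM in MA libraries, against 403, 335, 657, 692, 454 and 331 FPKM in SA libraries. For both genes the highest values were those of SA libraries 2 and 3, as for Mog. The log2 fold change was -0.25 (SE 0.19, adjusted p = 0.724, exact permutation p = 0.258) for Mag and -0.22 (SE 0.21, adjusted p = 0.778, exact permutation p = 0.333) for Cnp.

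Mobp, a small basic protein on the cytoplasmic side of myelin, had 183, 122, 169, 193, 283 and 233 FPKM in MA libraries, against 149, 154, 213, 326, 134 and 131 FPKM in SA libraries. Its SA values were highest in library 3 and next in library 2, while MA libraries 4 and 5 stood above the other MA libraries as they did for Mbp. The mean was 197 ± 55.4 FPKM in MA rats and 185 ± 75.6 FPKM in SA rats, a log2 fold change of 0.13 (SE 0.24, adjusted p = 0.905, exact permutation p = 0.641).

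Olig2, the basic helix-loop-helix factor that the lineage cannot form without, had 22.9, 14.1, 18.8, 16.5, 27.4 and 24.01 FPKM in MA libraries, against 18.8, 16.6, 24.8, 25.3, 23.6 and 14.7 FPKM in SA libraries. Its mean was 20.6 ± 5.01 FPKM in MA rats and 20.6 ± 4.51 FPKM in SA rats, a log2 fold change of -0.01 (SE 0.17, adjusted p = 0.994, exact permutation p = 0.985). Olig1, its close relative with a role in differentiation and myelination, had 118, 77.3, 114, 106, 156 and 150.3 FPKM in MA libraries, against 98.3, 91.4, 130.3, 148, 121 and 84.2 FPKM in SA libraries. MA libraries 4 and 5 were above every SA library, library 1 was below every SA library, and the log2 fold change was 0.09 (SE 0.18, adjusted p = 0.910, exact permutation p = 0.647). Both factors are expressed in precursors as well as in myelinating cells.

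The precursor genes gave the smallest unadjusted p of the 9 genes. Cspg4, which encodes the NG2 proteoglycan and is also expressed by pericytes, had 5.75, 4.34, 5.48, 5.22, 6.54 and 5.94 FPKM in MA libraries, against 4.29, 3.84, 4.01, 4.41, 3.84 and 3.89 FPKM in SA libraries. All MA libraries but library 1 exceeded the highest SA library. The mean was 5.55 ± 0.742 FPKM in MA rats and 4.05 ± 0.248 FPKM in SA rats, which is 37.1% higher in MA rats, with a log2 fold change of 0.37 (SE 0.086), an unadjusted limma p of 0.000897 and an exact permutation p of 0.00433. Pdgfra, the receptor through which platelet-derived growth factor drives precursor division, had 13.1, 10.9, 12.5, 12.8, 14.5 and 16.5 FPKM in MA libraries, against 10.9, 10.4, 10.9, 10.9, 10.4 and 10.7 FPKM in SA libraries. The groups of Pdgfra did not overlap, though only narrowly: the lowest MA library held 10.9208 FPKM and the highest SA library 10.9187 FPKM. The FPKM sum of a library was 361025 to 418892 in MA rats and 348717 to 371477 in SA rats. Values were not divided by that sum, which averaged 379975 in MA rats and 356131 in SA rats. The lowest MA value was in library 1, with a sum of 361025, and the highest SA value in library 2, with a sum of 354351. Divided by these sums, MA library 1 would fall below SA library 2, so the groups would overlap. The mean and tests that follow use the values as deposited. The mean was 13.4 ± 1.92 FPKM in MA rats and 10.7 ± 0.245 FPKM in SA rats, which is 25.1% higher in MA rats, with a log2 fold change of 0.29 (SE 0.084), an unadjusted limma p of 0.0046 and an exact permutation p of 0.00216, the smallest that 6 against 6 libraries can give.

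Neither precursor gene passed the study-wide test. The adjusted p over the 10607 genes tested in the striatum was 0.577 for both, where a gene counted as called at an adjusted p below 0.05 with a 1.5-fold or larger difference, and 0 of the 9 genes were called by limma (2 at an unadjusted p under 0.05). Over all genes, 1 was called, or 0.00943%. An unadjusted p under 0.05 with a higher level in MA rats was found for 5.38% of all genes tested and for 2 of the 9, and the MA libraries stood entirely above the SA libraries for 0.198% of all genes tested and for 1 of the 9. By unadjusted p, Cspg4 was at rank 10 and Pdgfra at rank 68 of the genes tested. When each of the 12 libraries was left out in turn, the log2 fold change stayed between 0.33 and 0.43 for Cspg4 and between 0.23 and 0.34 for Pdgfra, with an unadjusted p under 0.05 in 12 of 12 fits for each gene. The adjusted p ranged between 0.122 and 0.9997 for Cspg4 and between 0.180 and 0.9997 for Pdgfra over all alternatives tried.

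**Figure D1:**
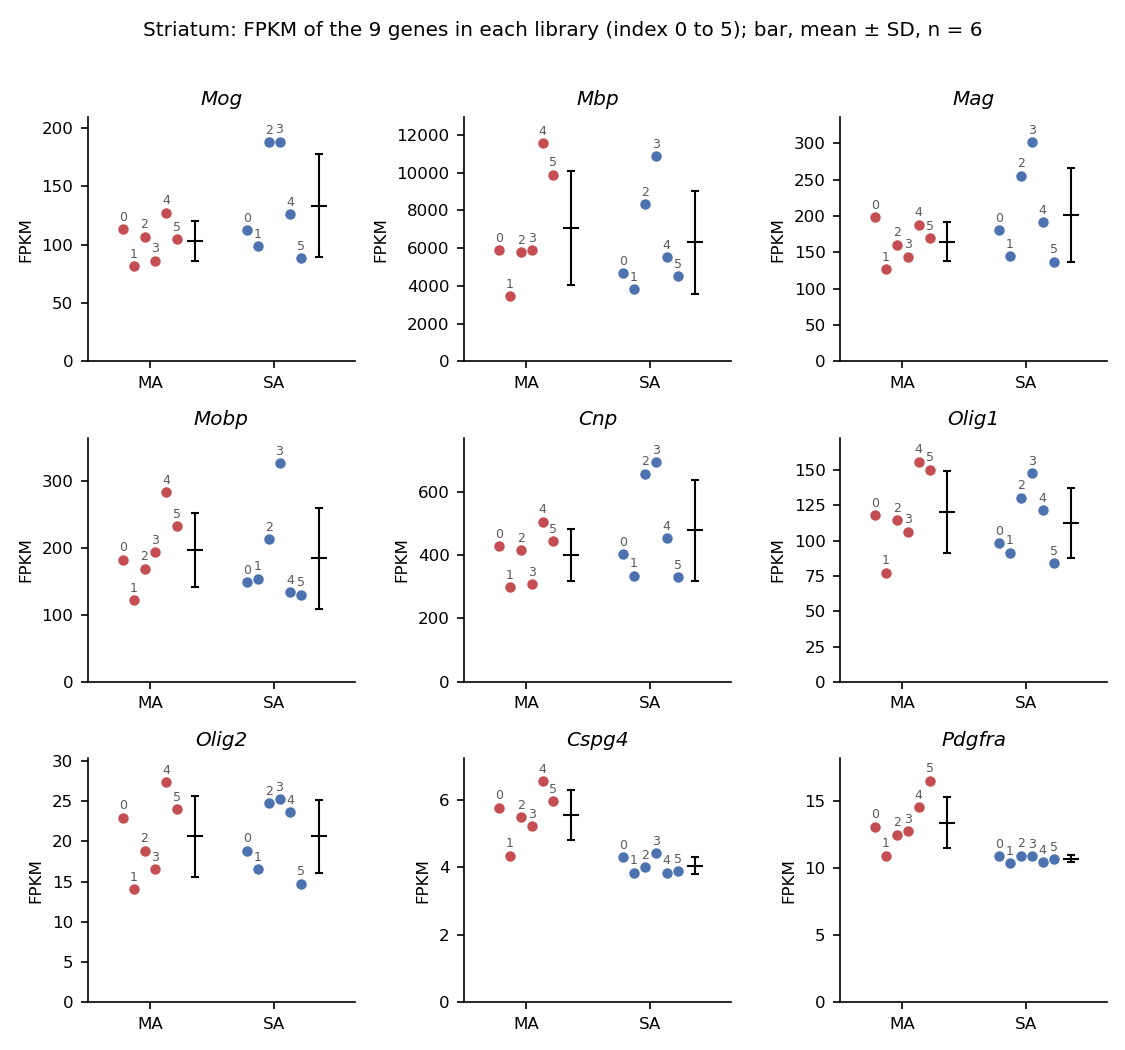
FPKM of the 9 genes (y axis, from 0) in the 6 MA and 6 SA striatum libraries, each point a library labelled by its index, with the mean and SD of the group beside it. SA libraries 2 and 3 carry the highest Mog, Mag and Cnp, while the 6 MA values of Pdgfra lie at 10.9 to 16.5 and the 6 SA values at 10.4 to 10.9.

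The spread within a group differed between genes. Pdgfra had a coefficient of variation of 14.3% in MA rats and 2.29% in SA rats, and Mbp of 42.6% in MA rats and 43.5% in SA rats. Low values in the table are whole multiples of what 1 fragment is worth, so approximate fragment numbers could be read back for 4 of the genes. Pdgfra was represented by about 891 to 1422 fragments in MA libraries and about 914 to 1019 in SA libraries, for which counting alone gives an SD of 2.65% to 3.35% in MA libraries and 3.13% to 3.31% in SA libraries. The spread of Pdgfra among SA libraries was thus no wider than counting gives, and the gap between its nearest MA and SA libraries was far narrower than that. Mog was represented by about 1482 to 2606 fragments in MA libraries and 1686 to 3927 in SA libraries, with a counting SD of at most 2.6%, so its spread between libraries was many times the counting error.

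Myelin genes varied together from library to library. After each group was centred on its mean, Pearson's r of Mog and Mbp over the 12 striatum libraries was 0.83 (permutation p = 0.00089, adjusted over the 3 relations computed 0.00134) and Spearman's rho was 0.85 (permutation p = 0.0011). Without SA libraries 2 and 3, the farthest from the median of Mog, r was 0.75, and it was 0.77 within MA and 0.94 within SA libraries. Mog and Olig2 gave r = 0.87 (permutation p = 0.00028, adjusted 0.00084) and rho = 0.90 (p = 0.0002), with r = 0.90 without the same libraries, 0.93 within MA and 0.93 within SA. Mog and Cspg4 gave r = 0.57 (permutation p = 0.0494, adjusted 0.0494) and rho = 0.70 (p = 0.0151), with r = 0.68 without the same libraries, 0.92 within MA and 0.53 within SA. The permutation shuffled centred values over all 12 libraries with no allowance for the centring. Its p-values are therefore somewhat too small, and 0.0494 cannot be taken as below 0.05. Over all pairs, r was 0.80 to 0.98 for the 10 pairs of myelin genes, 0.76 to 0.96 for the 10 pairs of a myelin gene with a factor, and 0.36 to 0.79 for the 10 pairs of a myelin gene with a precursor gene. Cspg4 and Pdgfra correlated with each other at 0.79. These values share the libraries and the scaling of each library.

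The genes most like the mean of the 5 myelin genes over the 12 libraries, by the same centred Pearson r, were Rhog (0.98), S1pr5, March8, Pllp, Rras2, Phldb1, Lamp2, Sirt2, Sox10 and Gng12 (0.96). Pllp encodes plasmolipin, a myelin membrane protein, Sirt2 a deacetylase abundant in myelin, and Sox10 the factor that activates myelin genes with the Olig proteins. On the same measure Cspg4 stood at 0.73 and Pdgfra at 0.57. The genes most like Cspg4 were Fgd2 (0.96), Rps27, Cmtm3, Cd53, Ctss, Tmem176b, Tmem134, Abi3, Tep1 and Cyth4 (0.92), of which Ctss, a lysosomal protease, and Cd53, a leukocyte tetraspanin, are known from microglia. Those most like Pdgfra were Sash3 (0.95), Fam212a, P2ry6, Sat2 and Sh3bgrl (0.92), and P2ry6 encodes a nucleotide receptor of microglia.

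Markers of other cells were also set against the groups, and none of those listed here was called by limma. Over all genes tested in the striatum, 50.5% had a log2 fold change above 0. An unadjusted p under 0.05 in limma with a higher level in MA rats was found for 5.38%. Of 7 general neuronal markers, 2 lay above 0 and 5 below, with a median of -0.24. Of the 10 striatal projection neuron markers, 7 lay above 0 and 3 below, with a median of 0.03. Neither neuronal list held an unadjusted p under 0.05. Of the 8 microglial markers listed, 8 had a log2 fold change above 0 in the striatum and 3 an unadjusted p under 0.05, and their summed level was 212 to 636 FPKM in MA libraries and 249 to 384 FPKM in SA libraries. MA libraries 4 and 5, which were highest for Cspg4 and Pdgfra, had the highest microglial sums, at 636 and 609 FPKM, and MA library 1, the lowest MA library for both genes, had the lowest at 212 FPKM. Of the 8 astrocyte markers, 7 lay above 0 and 5 had an unadjusted p under 0.05, with sums of 2411 to 5716 FPKM in MA libraries and 2586 to 3309 FPKM in SA libraries. Astrocyte sums were likewise highest in MA libraries 4 and 5, at 5716 and 4203 FPKM, and lowest in MA library 1, at 2411 FPKM. Among MA libraries, Mbp, Mobp, Cnp, Olig1 and Olig2 were also highest in 4 and 5 and lowest in 1. For Mog and Mag the 2 highest MA libraries were 0 and 4. The pattern was thus not particular to microglial markers. Of the 10 pericyte and smooth muscle markers, 10 lay above 0 and 0 had an unadjusted p under 0.05 in limma, with sums of 54.8 to 231 FPKM in MA libraries and 56.8 to 92.9 FPKM in SA libraries. Of the 4 erythrocyte markers tested, 4 lay above 0 and 3 had an unadjusted p under 0.05, with a median log2 fold change of 1.12 and sums of 631 to 5658 FPKM in MA libraries and 354 to 902 FPKM in SA libraries. Of the 6 fibroblast and meningeal markers tested, 5 lay above 0, with a median of 0.47 and sums of 12.4 to 101 FPKM in MA libraries and 11.7 to 21.1 FPKM in SA libraries. No microglial, astrocyte, pericyte or erythrocyte marker measured was at 0 in any striatum library, and 2 or 3 of the 10 fibroblast markers were at 0 in each. The part of these cells in the levels of Cspg4 and Pdgfra was not tested. MA library 3, which stood apart with 231 FPKM of pericyte markers, 101 FPKM of fibroblast markers and 5658 FPKM of erythrocyte markers, against at most 92.9, 21.1 and 902 FPKM in SA libraries, held 5.22 FPKM of Cspg4 and 12.8 FPKM of Pdgfra, in the lower part of the MA range. Without it, the log2 fold change was 0.38 for Cspg4 and 0.30 for Pdgfra. Without MA libraries 3 and 4, whose vascular sums were the highest, it was 0.33 for Cspg4 (unadjusted p = 0.00412, adjusted p = 0.9997 in limma) and 0.27 for Pdgfra (unadjusted p = 0.0175, adjusted p = 0.9997). MA libraries 4 and 5, highest for microglial and astrocyte sums, were not left out together. These fits describe the dependence on libraries, and the part of any cell type was not tested by them.

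Precursor genes were then set against myelin genes within each library, as a description with no test. The mean log2(FPKM + 1) of Cspg4 and Pdgfra minus that of the 5 myelin genes was -5.37, -5.06, -5.32, -5.20, -5.60 and -5.35 in MA libraries 0 to 5, against -5.50, -5.39, -6.19, -6.40, -5.69 and -5.31 in SA libraries 0 to 5. The ranges overlapped, and SA libraries 2 and 3 lay lowest. The mean was -5.32 ± 0.18 in MA rats and -5.75 ± 0.45 in SA rats. Per 100 FPKM of Mog, Cspg4 stood at 5.08 to 6.03 FPKM in MA libraries and 2.13 to 4.40 FPKM in SA libraries, with no overlap, and Pdgfra at 11.4 to 15.8 FPKM in MA libraries and 5.79 to 12.1 FPKM in SA libraries, with overlap. The gene in the denominator mattered. Cspg4 did not overlap per 100 FPKM of Mag (2.90 to 3.61 in MA libraries, 1.46 to 2.84 in SA libraries) or of Cnp (1.29 to 1.70 in MA libraries, 0.610 to 1.18 in SA libraries). It did overlap per 100 FPKM of Mobp (2.31 to 3.57 in MA libraries, 1.35 to 2.98 in SA libraries) and per 10000 FPKM of Mbp (5.66 to 12.5 in MA libraries, 4.06 to 10.01 in SA libraries). Pdgfra overlapped between the groups with each of the 5 myelin genes in the denominator. Of 6 MA libraries, 3 lay above every SA library per Mog, Mag or Cnp, and 1 per Mobp or Mbp. Higher precursor genes and lower Mog both enter these ratios.

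Ratios among myelin genes were not the same in all libraries. Mbp per FPKM of Mog was 52.0, 42.5, 54.2, 68.0, 90.5 and 94.4 in MA libraries 0 to 5, against 41.6, 38.8, 44.4, 57.8, 43.8 and 51.1 in SA libraries 0 to 5. MA libraries 3, 4 and 5 lay above every SA library, and MA libraries 0, 1 and 2 lay within the SA range. Libraries 3, 4 and 5 were also the highest MA libraries for microglial markers. They held 448, 636 and 609 FPKM, against 212 to 407 FPKM in MA libraries 0, 1 and 2. The same held for erythrocyte markers, at 5658, 1830 and 1372 FPKM against 631 to 1020 FPKM, and narrowly for fibroblast markers. It did not hold for astrocyte sums (3754 FPKM in MA library 3, 3856 FPKM in MA library 2) or pericyte sums (70.7 FPKM in MA library 5, 78.6 FPKM in MA library 2). Among SA libraries, library 3 had the highest ratio and the highest microglial sum, at 384 FPKM. Its erythrocyte sum was 460 FPKM, against 902 FPKM in SA library 0 with a ratio of 41.6. The part of these cells in the ratio was not tested. Mobp per FPKM of Mog split the MA libraries the same way, at 1.61, 1.49, 1.58, 2.23, 2.22 and 2.22 in MA libraries, against 1.33, 1.56, 1.14, 1.73, 1.06 and 1.48 in SA libraries. Mag per FPKM of Mog did not, at 1.48 to 1.75 in MA libraries and 1.36 to 1.60 in SA libraries, with MA libraries 0, 3 and 5 above every SA library. Cnp per FPKM of Mog was 3.56 to 4.24 in MA libraries and 3.39 to 3.74 in SA libraries, with MA libraries 0, 2, 4 and 5 above every SA library. The mean ratio was thus higher in MA rats for Mag (1.60 against 1.52) and for Cnp (3.84 against 3.58) as well. The mean ratio of Mbp to Mog was 66.9 ± 21.4 in MA rats and 46.2 ± 6.98 in SA rats, and that of Mobp to Mog 1.89 ± 0.365 in MA rats and 1.38 ± 0.257 in SA rats.

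**Figure D2:**
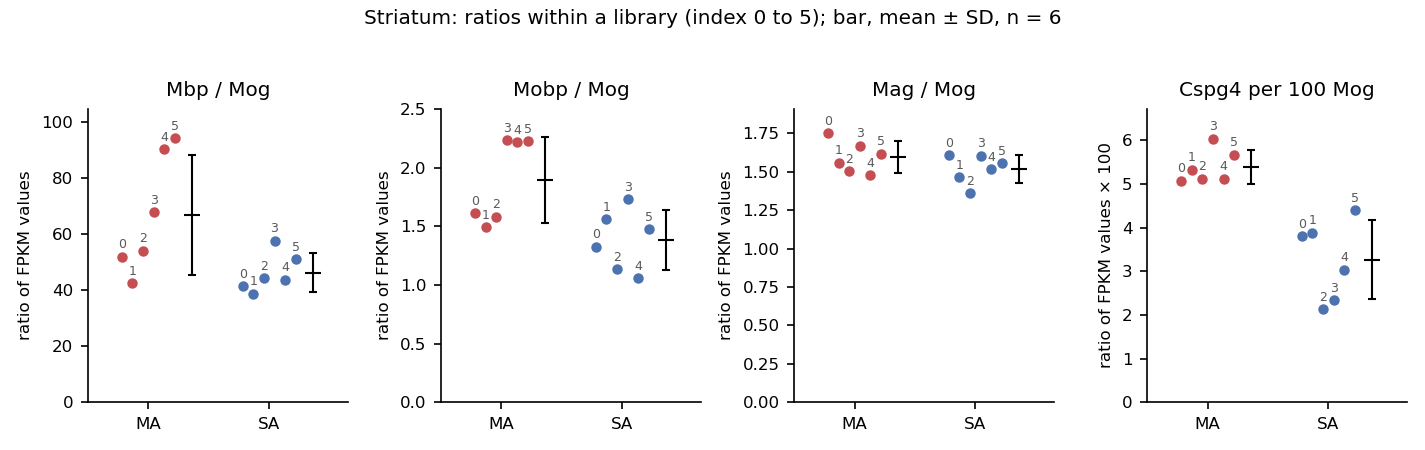
Ratios of FPKM values within each of the 6 MA and 6 SA striatum libraries (y axis from 0; points labelled by library index, mean and SD of the group beside them). Mbp to Mog reaches 68.0 to 94.4 in MA libraries 3, 4 and 5, Mag to Mog stays between 1.36 and 1.75 in all 12 libraries, and Cspg4 per 100 FPKM of Mog does not overlap between the groups.

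**Figure D3:**
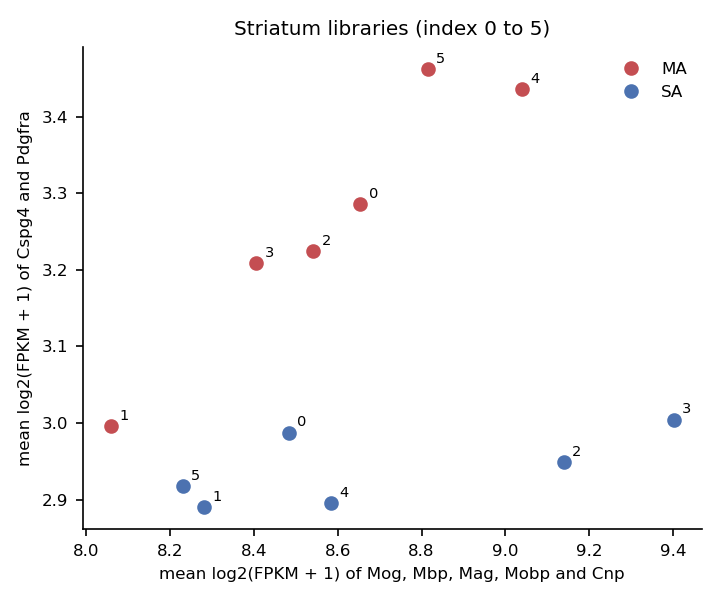
Mean log2(FPKM + 1) of Cspg4 and Pdgfra (y axis) against that of the 5 myelin genes (x axis) in the 12 striatum libraries, labelled by index. MA libraries run upward with the myelin mean between 3.00 and 3.46, while SA libraries stay between 2.89 and 3.00 over the whole range of the myelin mean.

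Promoters of the genes that varied together were searched for short binding motifs of the lineage factors, as a description. RefSeq promoters of the rat assembly GRCr8, 250 bases before to 50 after the start, were at hand for 7 of the 9 genes (Mog and Olig1 had no entry). The motifs, read on both strands, were CAGCTG and CATCTG, which basic helix-loop-helix factors bind, and ACAAAG and ACAATG, which SOX factors bind. No printed match overlaps another, and of all 33469 promoters 15.1% held CAGCTG, 16.6% CATCTG, 18.8% ACAAAG and 13.2% ACAATG. The 5 sequences that follow, from the far end of the promoter to 101 bases before the start, show Mag, Mobp and Cnp, which hold a match, and both precursor genes. Capitals mark a motif, as CTTTGT where ACAAAG stands on the other strand.
Mag (chr1:95291145-95291294, minus strand): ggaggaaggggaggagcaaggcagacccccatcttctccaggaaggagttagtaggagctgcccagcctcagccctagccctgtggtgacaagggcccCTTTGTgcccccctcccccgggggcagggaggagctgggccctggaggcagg
Mobp (chr8:128746982-128747131, plus strand): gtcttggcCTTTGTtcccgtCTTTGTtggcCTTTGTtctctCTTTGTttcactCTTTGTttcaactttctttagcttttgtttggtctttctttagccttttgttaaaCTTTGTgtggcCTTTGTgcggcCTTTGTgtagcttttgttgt
Cnp (chr10:86011254-86011403, plus strand): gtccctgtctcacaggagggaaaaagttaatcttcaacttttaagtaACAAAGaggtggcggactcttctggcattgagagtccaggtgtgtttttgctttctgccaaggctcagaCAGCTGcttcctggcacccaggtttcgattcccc
Cspg4 (chr8:66160692-66160841, plus strand): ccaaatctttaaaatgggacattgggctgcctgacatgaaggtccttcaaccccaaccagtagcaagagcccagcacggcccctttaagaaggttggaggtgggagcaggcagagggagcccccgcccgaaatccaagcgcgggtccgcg
Pdgfra (chr14:33408617-33408766, minus strand): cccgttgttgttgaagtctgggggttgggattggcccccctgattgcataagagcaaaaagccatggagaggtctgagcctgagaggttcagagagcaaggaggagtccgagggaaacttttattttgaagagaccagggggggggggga
Mobp held ACAAAG 8 times, all on the opposite strand, Mag held it 1 time, and Cnp held ACAAAG 1 time and CAGCTG 1 time. Olig2, Cspg4 and Pdgfra held none of the 4 motifs in the window. Of the start sites listed for Mbp, 1 held none and the other held all 4 motifs, ACAATG 2 times and the others 1 time each. A match of these letters is no measure of binding, and the window is a small part of each gene's regulatory sequence.

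The other genes of the lineage were counted by lists in the striatum, and none of them was called by limma. Of 31 other myelin and mature oligodendrocyte genes tested, 2 lay above 0 and 29 below, with a median log2 fold change of -0.16, where 49.5% of all genes tested lay below 0 and the median of all was 0.00. None of them had an unadjusted p under 0.05 with a higher level in MA rats, and 1 did with a lower level. That gene was Tmem125, at 12.7 ± 1.56 FPKM in MA rats and 16.3 ± 4.28 FPKM in SA rats (log2 fold change -0.32, SE 0.14, unadjusted p = 0.0474, adjusted p = 0.603 in limma). Apod, a lipid-binding lipocalin, averaged 384 ± 54.9 FPKM in MA rats and 439 ± 177 FPKM in SA rats, Tf, the iron carrier transferrin, 396 ± 78.6 FPKM in MA rats and 428 ± 114 FPKM in SA rats, and Qdpr, a reductase, 272 ± 41.3 FPKM in MA rats and 323 ± 100.4 FPKM in SA rats. Klk6, a protease of mature oligodendrocytes, averaged 43.5 ± 6.27 FPKM in MA rats and 53.9 ± 12.04 FPKM in SA rats (unadjusted p = 0.0675). The genes above 0 were Plekhb1 (0.19) and Cryab (0.01).

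These 31 genes are not independent of each other or of the myelin genes above. Of the 31, 26 had an r above 0.8 with the mean of the 5 myelin genes, against 354 of all 10607 genes tested. Without SA library 2 the count below 0 was 22 of 31 and the median -0.09, and without SA library 3 it was 23 of 31 and -0.08, so 9 and 8 genes lay above 0. Leaving out any other library gave 26 to 30 below 0.

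Of 11 other precursor genes tested, 8 lay above 0 and 3 below, with a median of 0.08, and 0 had an unadjusted p under 0.05. Gpr17 and Sox6, both above 0, are also counted in the lists of newly forming oligodendrocytes and of transcription factors. With the mean of the 5 myelin genes, r ran from -0.61 (Cacng4) to 0.90 over the 11, with 1 above 0.8 and a median of 0.40. Bcan, a proteoglycan of precursors that astrocytes also make, averaged 159 ± 47.5 FPKM in MA rats and 126 ± 9.24 FPKM in SA rats (log2 fold change 0.29, SE 0.15, unadjusted p = 0.0732). Cacng4, a subunit of AMPA receptors, averaged 62.3 ± 13.6 FPKM in MA rats and 47.9 ± 14.1 FPKM in SA rats (0.40, SE 0.20, unadjusted p = 0.0730), and Ptprz1, a receptor phosphatase, 41.2 ± 7.999 FPKM in MA rats and 34.9 ± 3.74 FPKM in SA rats (0.22, SE 0.12, unadjusted p = 0.0820). Epn2, an adaptor of endocytosis, averaged 56.0 ± 3.48 FPKM in MA rats and 53.1 ± 5.36 FPKM in SA rats. All adjusted p-values of these 4 genes were at or above 0.629 in limma.

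Of 10 genes of newly forming oligodendrocytes, 5 lay above 0 and 5 below, with a median of -0.00, and 0 had an unadjusted p under 0.05. Bcas1, a protein of early myelinating cells, averaged 138 ± 57.4 FPKM in MA rats and 119.6 ± 47.8 FPKM in SA rats, Fyn, a kinase that starts myelination, 51.6 ± 3.20 FPKM in MA rats and 49.0 ± 4.53 FPKM in SA rats, and Gpr17, a receptor of cells about to differentiate, 17.3 ± 1.37 FPKM in MA rats and 16.1 ± 3.26 FPKM in SA rats. Rras2 averaged 7.20 ± 1.63 FPKM in MA rats and 7.29 ± 2.38 FPKM in SA rats, and Enpp6 1.95 ± 1.01 FPKM in MA rats and 2.85 ± 1.36 FPKM in SA rats. Of 11 other lineage transcription factors, 5 lay above 0 and 6 below, with a median of -0.04 and 0 at an unadjusted p under 0.05. Sox10 averaged 37.8 ± 7.71 FPKM in MA rats and 42.4 ± 11.2 FPKM in SA rats, and Myrf, which turns on the myelin programme, 28.7 ± 2.79 FPKM in MA rats and 35.0 ± 9.39 FPKM in SA rats (unadjusted p = 0.131). Id2 averaged 51.3 ± 17.5 FPKM in MA rats and 46.8 ± 5.78 FPKM in SA rats, and Id4 44.3 ± 12.8 FPKM in MA rats and 39.7 ± 6.68 FPKM in SA rats. Id proteins hold back differentiation by binding helix-loop-helix partners.

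Of 16 ligands and receptors of the lineage, 7 lay above 0 and 9 below, with a median of -0.04. Gpr37 is also counted among the 31 other myelin genes. Lrp1, an endocytic receptor, was the only one with an unadjusted p under 0.05, at 41.7 ± 1.84 FPKM in MA rats and 35.7 ± 4.58 FPKM in SA rats (log2 fold change 0.23, SE 0.085, unadjusted p = 0.0197, adjusted p = 0.577 in limma). Adgrg1, an adhesion receptor of precursors, averaged 104 ± 20.6 FPKM in MA rats and 87.4 ± 11.2 FPKM in SA rats, Rtn4, the precursor of the neurite growth inhibitor Nogo, 100.2 ± 12.2 FPKM in MA rats and 111 ± 17.2 FPKM in SA rats, and Gpr37 65.6 ± 12.1 FPKM in MA rats and 73.8 ± 22.2 FPKM in SA rats. Pdgfa, the ligand of Pdgfra, averaged 17.4 ± 3.14 FPKM in MA rats and 16.3 ± 2.73 FPKM in SA rats.

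**Figure D4:**
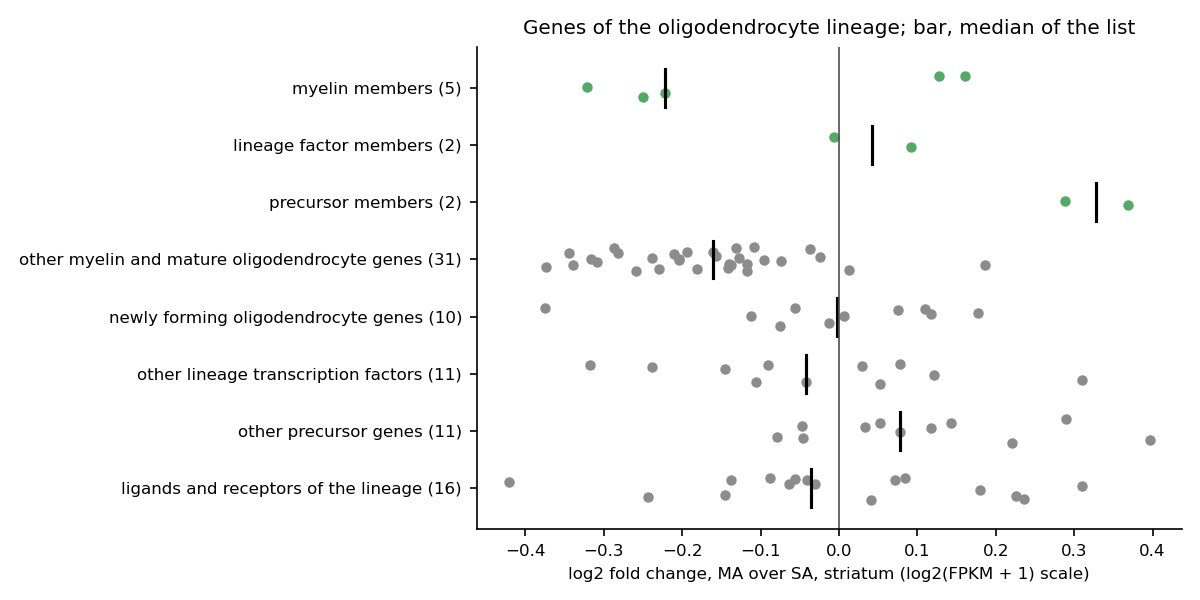
Log2 fold change of MA over SA in the striatum (x axis) for each tested gene of 8 lists (rows, number of genes in brackets), with the 9 genes described here in green, the other genes in grey and a bar at the median of each list. Of the 31 other myelin genes 29 lie left of 0, and the precursor genes Pdgfra and Cspg4 lie at 0.29 and 0.37.

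In the whisker follicle, a skin organ with no oligodendrocytes, the same genes were low or listed at 0. Cnp stood at 4.20 to 8.56 FPKM in MA libraries and 5.39 to 10.4 FPKM in SA libraries, Mag at 0.314 to 2.33 FPKM in MA libraries and 0.813 to 2.25 FPKM in SA libraries, and Cspg4 at 0.359 to 1.53 FPKM in MA libraries and 0.694 to 1.70 FPKM in SA libraries. Mog stood at 0.120 to 0.422 FPKM in MA libraries and 0 to 0.409 FPKM in SA libraries, and Pdgfra at 0 to 0.225 FPKM in MA libraries and 0.0294 to 0.273 FPKM in SA libraries. Myelin of peripheral nerves is made by Schwann cells, which share Mbp, Mag and Cnp with oligodendrocytes and lack Mog. The Schwann cell gene Prx averaged 0.719 FPKM in MA libraries, against 0.608 FPKM in SA libraries, and Cdh19 was listed at 0 in all 12.

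Mbp stood at 4.74, 3.92, 4.31, 5.02, 5.11 and 6.00 FPKM in MA follicle libraries, against 5.80, 5.17, 5.42, 4.22, 4.69 and 49.9 FPKM in SA follicle libraries 0 to 5. SA library 5 lay far above the other 11, which overlapped. The same library had the highest Mobp, at 0.657 FPKM against at most 0.116 in the other 11, the highest Olig1, at 0.778 FPKM against at most 0.111, and the only Olig2 value above 0, at 0.155 FPKM. In fragments these values are small: Olig1 came to about 8 in SA library 5 and at most 1 in the others, Mobp to about 11 against at most 2, and Olig2 to 1 against 0. Each step of 1 fragment was worth 2.01 to 4.21 times as much FPKM in follicle libraries as in the deepest striatum library.

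This library also carried other striatal transcripts. Of 69 genes with a mean of at least 100 FPKM in the striatum and a median under 0.1 FPKM in the follicle, 68 had a value above 0 in SA library 5, with a summed level of 76.7 FPKM and a median of 0.494% of the striatal mean. In the other 11 libraries 13 to 48 of them had a value above 0, with sums of 1.26 to 6.99 FPKM. The excess of SA library 5 over the median of the other follicle libraries was 0.670% of the striatal mean for Mbp, 0.669% for Olig1, 0.751% for Olig2, 0.855% for Cnp, 0.558% for Mag, 0.325% for Mobp and 0.134% for Mog. For Mog and Mag the highest follicle library was another one, MA library 1 at 0.422 FPKM of Mog and MA library 0 at 2.33 FPKM of Mag. For the precursor genes SA library 5 did not stand apart. Its excess was 1.30% for Cspg4, against 8.74% in SA library 2, and 1.68% for Pdgfra, against 1.30% in SA library 0. The excess of SA library 5 was 0.463% for Drd1 and 0.510% for Penk, genes of striatal projection neurons. How these transcripts came into the library was not tested.

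**Figure D5:**
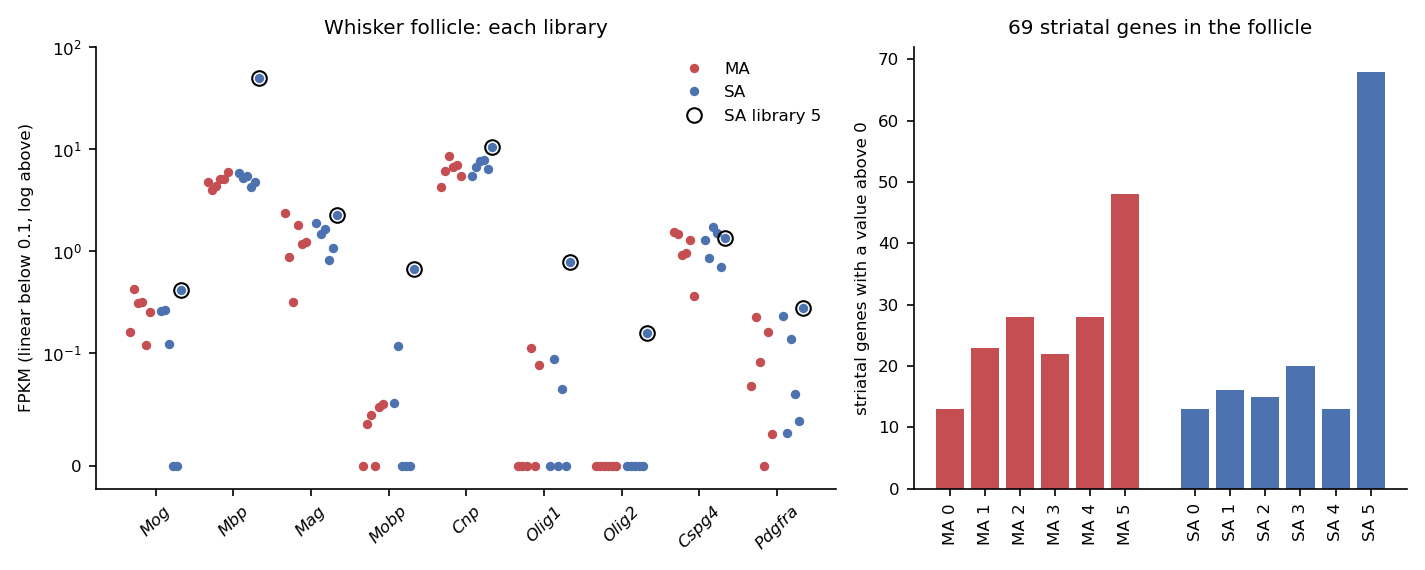
Left, FPKM of the 9 genes in the 6 MA and 6 SA whisker follicle libraries (y axis linear below 0.1 and logarithmic above), with SA library 5 circled. Right, how many of 69 striatal genes have a value above 0 in each follicle library. SA library 5 stands at 49.9 FPKM of Mbp and 68 of 69 genes, against at most 6.00 FPKM and 48 genes in the other 11.

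Only 4 of the 9 genes reached the mean of 1 FPKM needed for limma in the follicle. For the other 5, the exact permutation test, not adjusted, gave p = 0.273 for Mog, 0.413 for Mobp, 0.576 for Olig1, 1 for Olig2 and 0.558 for Pdgfra. None of the 4 was called by limma or had an unadjusted p under 0.05, and over all 9138 genes tested 0 (0%) were called, with 953 at an unadjusted p under 0.05 and a smallest adjusted p of 0.340. The 4 log2 fold changes, MA over SA, all lay below 0, as did 51.7% of all genes tested: -0.57 (SE 0.46, adjusted p = 0.548) for Mbp, -0.20 (SE 0.16, adjusted p = 0.554) for Cnp, -0.17 (SE 0.22, adjusted p = 0.706) for Mag and -0.11 (SE 0.18, adjusted p = 0.776) for Cspg4. Without SA library 5, Mbp was at -0.05 (adjusted p = 0.910), and without MA library 5, which holds the lowest Cspg4, Cspg4 was at 0.01.

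The difference between the MA effect in the striatum and that in the follicle was tested for each gene as an interaction, at an adjusted p below 0.05 with no threshold on its size. Both tissues came from the same rats, which the columns do not identify, so the fit took the 24 libraries as independent. It was 0.47 (SE 0.19, unadjusted p = 0.0218, adjusted p = 0.433 in limma) for Cspg4 and 0.33 (SE 0.13, unadjusted p = 0.0182, adjusted p = 0.433) for Pdgfra, both toward a larger effect in the striatum. The follicle level of Pdgfra was at 12 fragments or fewer in every library. The other 7 genes had adjusted p-values of 0.477 or above, and over all genes tested 0.00867% passed. None of the 9 passed, except Cspg4 when libraries were weighted by their quality (0.49, adjusted p = 0.0497).

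Between tissues the levels differed by far more than between treatments. The log2 fold change of striatum over whisker follicle was 10.14 in MA rats and 9.41 in SA rats for Mbp. In the same order of MA rats and then SA rats it was 7.54 and 7.29 for Mobp, 6.84 and 6.62 for Olig1, 6.36 and 6.79 for Mog, 6.22 and 6.30 for Mag, 5.78 and 5.80 for Cnp, and 4.40 and 4.37 for Olig2. The value was 3.71 in MA rats and 3.38 in SA rats for Pdgfra, and 1.67 in MA rats and 1.20 in SA rats for Cspg4. Genes near 0 in the follicle depend on the pseudocount: at 0.1, Pdgfra was at 6.21 in MA rats and 5.69 in SA rats, beside 5.97 in MA rats and 5.97 in SA rats for Cnp, and Cspg4 at 2.35 in MA rats and 1.70 in SA rats. All 9 passed the thresholds in both, as did 42.5% of all genes tested in MA rats and 43.6% in SA rats in this direction, and most of the 9 entered the test only through their striatal level, so the count is a description. The median of all genes tested was 0.26 in MA rats and 0.30 in SA rats as deposited, and -0.09 and -0.07 after quantile normalization, under which Cspg4 was at 0.30 in SA rats and no longer past the fold threshold.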

How the data were processed

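RNA from the striatum and whisker follicles was sequenced in 24 libraries. The FPKM values analysed were computed by the authors and deposited in 1 table with a column per library. Alignment to rn6 was by TopHat2 according to the study's methods, after Cutadapt, and by STAR 2.6.0c according to the processing notes of the submitters, which also list bcl2fastq and Cufflinks 2.2.1. No source used here states the annotation or whether libraries were scaled to each other. FPKM values are not counts, so MA and SA were compared on log2(FPKM + 1) over genes at a mean of 1 FPKM or more, by limma 3.58.1 (R 4.3.3) with moderated variances that follow the intensity trend. Fold changes on this scale understate the change of low genes. The thresholds of the study were kept (adjusted p below 0.05, 1.5-fold or more). Column names give the tissue and treatment only, and rats are the replicates. No column was left out.

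The interaction and the tissue contrasts were fitted on genes at a mean of 1 FPKM in either tissue. Single genes were compared by an exact permutation test. Relations used 100000 resamples. The relative worth of 1 fragment was read from values under 0.2 FPKM, and 271 of 276 pairs of libraries gave a ratio within 2% of the fitted one. A gene's values were taken as whole fragments when within 0.08 of a whole number, as all of Mog, Mobp, Olig1, Olig2 and Pdgfra in the follicle were. Fragment numbers are approximate, intervals from them cover counting error only, and the total of each library is not known. The test was tried on simulated data before use. Named genes are the 9 genes, the 4 highest and the 2 with the smallest p of each list, and the 10 most like the myelin mean or Cspg4. Pdgfa, Plekhb1, Cryab and the 5 genes most like Pdgfra were added after values were seen. Some genes that the rule takes are not reported here. The genes and lists were chosen with earlier results of these data known. Alternatives were other pseudocounts (0.5 and 0.1), filters, scalings and weights, and leaving out libraries.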

Additional observations from a re-analysis of the deposited data

Results flagged for a closer look

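Whisker follicle SA library 5 lay far from the other 5 SA follicle libraries for 4 of the genes. It held 49.9 FPKM of Mbp, 0.657 FPKM of Mobp, 0.778 FPKM of Olig1 and 0.155 FPKM of Olig2, and the gap to its nearest neighbour took up 0.965, 0.824, 0.879 and 1 of the group's whole range. For Olig2 the other 5 libraries are listed at 0, so a single fragment gives 1 and its flag carries no weight. For the others, about 1 in 20 groups would be flagged by chance. That rate belongs to the cutoff for a flag, and the rate for gaps this wide was not computed. In all, 35 groups of a gene, tissue and treatment were examined here. All 4 flags fall on a single library, so they count as 1 event.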

How the results depend on the processing

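No paired analysis was possible because the columns carry an index that the sources tie to no rat. The count of called genes among the 9 stayed at 0 in each tissue in all alternatives run. Of the single values, 589 kept direction and side of the threshold, 34 changed sign, 1 gained and 1 lost a call. Olig2 in the striatum was at 0.032 with weighted libraries and between -0.093 and 0.091 as each library was left out. Leaving out MA libraries 3 and 4 gave -0.0036 for Mbp, -0.019 for Mobp and 3 rather than 5 of the 9 genes above 0 in the striatum, and -0.010 for Olig2 in the interaction. Leaving out single libraries gave -0.0020 to 0.35 for Mbp in the striatum, -0.18 to 0.012 for Cspg4 in the follicle (0 to 1 of 4 genes above 0) and, in the interaction, -0.23 to 0.048 for Mag, -0.12 to 0.097 for Cnp and -0.058 to 0.13 for Olig2. With a pseudocount of 0.1, the interaction was 0.096 for Mag and 0.0047 for Cnp. A common median gave 0.027 and weighted libraries 0.22 for Cnp, and with weighted libraries 1 of the 9 genes, Cspg4 at 0.49, passed the adjusted p threshold of the interaction, which has no fold threshold. Under quantile normalization Mbp, highest in every striatum library, takes the same value in each by construction, and Cspg4 between tissues in SA rats was at 0.30. Without a filter 5 of 13 other precursor genes lay below 0, and 1 to 4 of 11 as libraries were left out. Over the same fits, 22 to 30 of the 31 other myelin genes lay below 0. In the follicle, Mog, Mobp, Olig1, Olig2 and Pdgfra rest on about 22, 18, 12, 1 and 52 fragments over 12 libraries, and the difference that this depth can show was not measured. The causes of these shifts were not tested.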
